A study of Danio rerio with 12 samples.

Results

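The genes described here are 40 zebrafish genes of protein folding and secretion in the endoplasmic reticulum (ER), out of 32520 listed genes. They were chosen by gene symbol: 9 chaperones and co-chaperones, 2 lectin chaperones, 5 disulfide isomerases, 7 sensors and transcription factors of the unfolded protein response, 7 genes of ER-associated degradation, 7 genes of the translocon and 3 subunits of the signal peptidase. All 40 symbols were listed, each in 1 row, and 39 reached at least 1 TPM (transcripts scaled to a fixed library total, a length-corrected share of the library) in at least 3 libraries and were tested. The co-chaperone gene dnajb9a did not reach that level: it stood at 1.85 TPM in 1 library of BPAF-exposed males and at 0.32 TPM or less in the other libraries. RNA was sequenced from livers of wild-type zebrafish of the TU strain, aged 4 months. Fish were kept for 28 days with 10 µg/L bisphenol AF (BPAF), a fluorinated relative of bisphenol A, or with the vehicle dimethyl sulfoxide (DMSO) at 0.0001%. The 12 libraries form 4 groups of 3, namely BPAF-exposed females, DMSO females, BPAF-exposed males and DMSO males. How much DMSO the BPAF tanks held is not in the labels, so effects of vehicle and of BPAF cannot be told apart. Nor do the labels say whether a library holds 1 liver or a pool. The p-values therefore measure only the spread between these libraries, which may be technical.

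Secreted and membrane proteins enter the ER through the translocon, where signal peptidase cuts off the leader, and then fold with the help of chaperones, lectin chaperones and disulfide isomerases. When unfolded proteins build up, 3 sensors (ern1, eif2ak3 and atf6) switch on the unfolded protein response, which raises chaperone transcripts and sends failed proteins to degradation. The liver is a major secretory organ, and in egg-laying fish the female liver also makes the yolk precursor vitellogenin under estrogen. The roles given for each gene are those known for its mammalian counterpart.

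The deposited values are on the TPM scale, which fixes the sum of each library. Vitellogenin transcripts made up 19.5% to 25.7% of that sum in the 6 female libraries and 0.0108% or less in the 6 male libraries. On this scale the median of all 11389 tested genes lay 0.66 lower in females than in males (log2, averaged over treatment), so the sex differences that passed are also given relative to that median. The libraries listed 7007 to 9217 genes at 1 TPM or more in females and 9108 to 12313 in males. The top of that range was BPAF-exposed male 1, which stood apart from the others: its trimmed-mean scaling factor was 2.16, against 0.606 to 1.36 in the other 11. Its level of the hepatocyte gene fabp10a was the lowest among males, at 36665 TPM against 56627 to 116294 TPM. Other hepatocyte genes did not follow. In that library ttr was the highest among males, at 562 TPM against 186 to 459 TPM, and fgb, apoa2 and tfa lay within the range of the other males. All 18 listed hepatocyte markers were at or above 1 TPM in every library. Their summed level was 64067 to 86481 TPM in females and 174754 to 255570 TPM in males. For these and all later values, in bulk liver, fewer cells of a type and less RNA per cell cannot be told apart. On the deposited scale neither can be told apart from the fixed sum, of which vitellogenins took 19.5% to 25.7% in females.

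**Figure D1:**
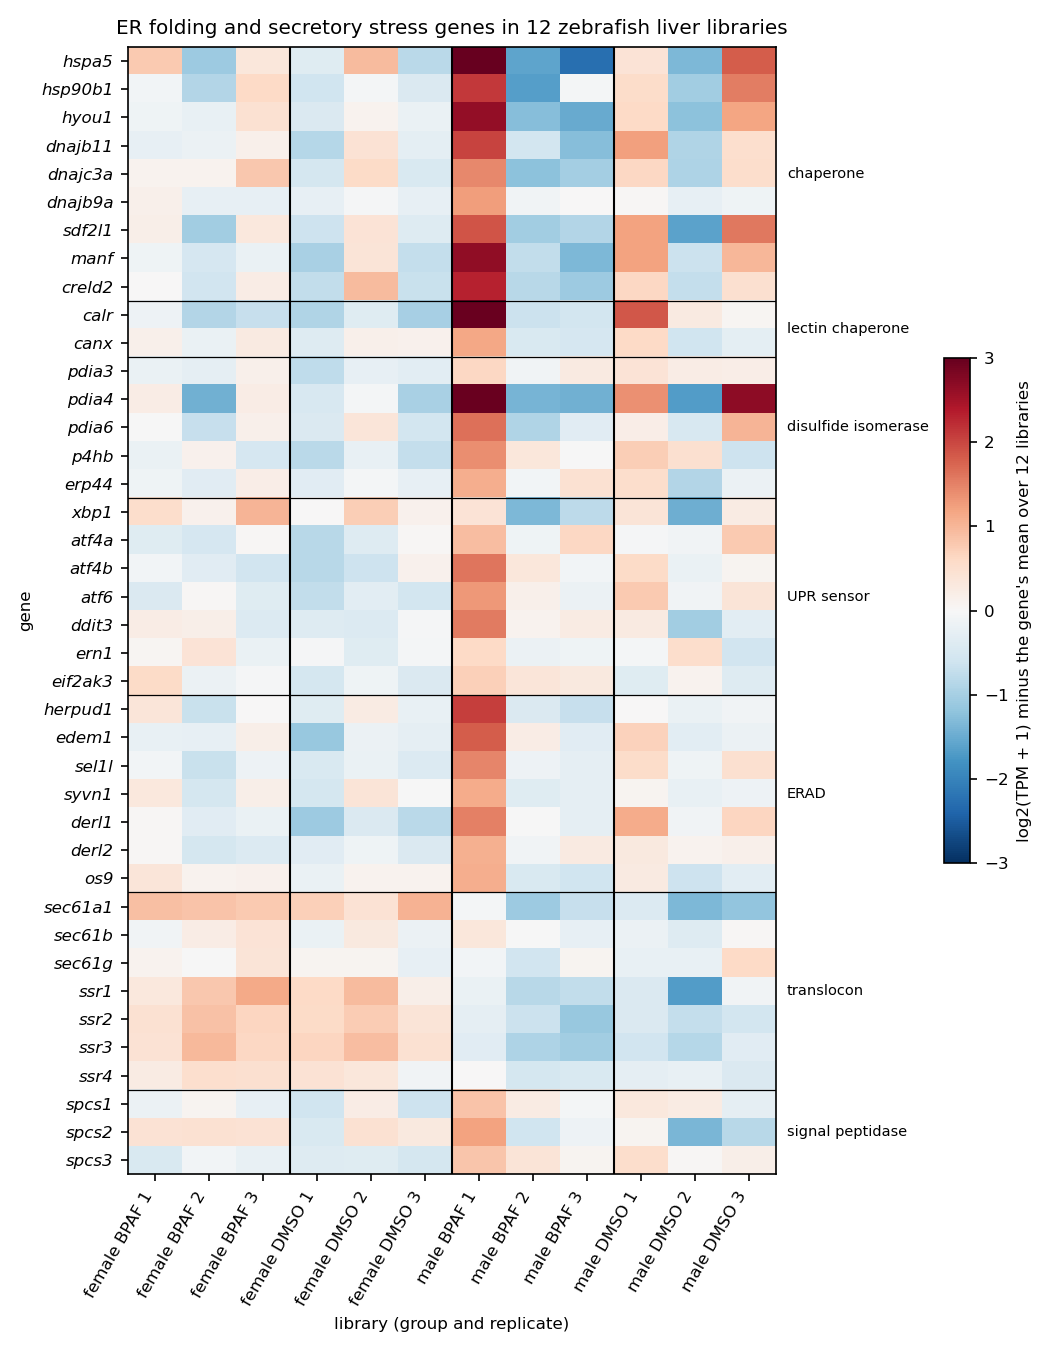
Levels of the 40 genes (rows, grouped by role) in the 12 libraries (columns), as log2(TPM + 1) minus each gene's mean over the 12 libraries; the colours end at 3 and -3. The genes sec61a1 and ssr1 to ssr4 are high across the 6 female columns. Most chaperone, folding and degradation genes are highest in BPAF-exposed male 1, and low in BPAF-exposed males 2 and 3 and in DMSO male 2 alike.

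The highest level among the 40 genes was that of a translocon gene. The gene sec61g, a small subunit of the Sec61 protein-conducting channel, stood at 1181 to 1831 TPM in females and 945 to 2114 TPM in males. The disulfide isomerase gene pdia3, which works with calnexin and calreticulin on glycoproteins, reached 199.9 to 375 TPM in females and 314 to 521 TPM in males. The transcription factor xbp1 was the highest of the unfolded protein response genes, at 189.6 to 382 TPM in females and 67.1 to 251 TPM in males. The values sum all xbp1 transcripts, so the spliced form that encodes the active factor is not separated. The sensors themselves were low: ern1 stood at 0.99 to 2.42 TPM in females and 0.72 to 2.88 TPM in males, eif2ak3 at 1.44 to 4.18 and 1.69 to 4.71 TPM, and atf6 at 2.59 to 5.11 and 4.30 to 13.9 TPM. The paired factors atf4a and atf4b, whose mammalian counterpart acts downstream of eif2ak3, stood at 32.4 to 60.4 and 16.9 to 33.8 TPM in females, and at 53.2 to 112 and 26.55 to 95.3 TPM in males.

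Among the chaperones, the levels of hspa5 and hsp90b1 were the highest, and the co-chaperones and helpers lay lower. The gene dnajc3a, a co-chaperone of BiP, stood at 12.4 to 32.6 TPM in females and 7.18 to 51.85 TPM in males. The gene dnajb11, another co-chaperone, ranged over 3.21 to 9.27 TPM in females and 2.14 to 29.95 TPM in males, and sdf2l1, which works beside it, over 2.76 to 9.38 and 1.56 to 27.7 TPM. Calnexin, the membrane-bound lectin chaperone encoded by canx, ranged over 12.65 to 20.5 TPM in females and 10.8 to 38.9 TPM in males. In each of these 4 genes the male range took in the whole female range.

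Of the other disulfide isomerases, p4hb, which is also a subunit of prolyl 4-hydroxylase, ranged over 67.6 to 130.3 TPM in females and 77.7 to 316 TPM in males, pdia6 over 7.82 to 17.4 and 6.66 to 43.45 TPM, and erp44 over 10.4 to 15.6 and 6.84 to 29.7 TPM. The degradation genes were lower: the lectin gene os9 ranged over 8.18 to 12.45 TPM in females and 5.9 to 21.6 TPM in males, the ubiquitin ligase gene syvn1 over 3.81 to 8.16 and 4.43 to 14.0 TPM, and its partner sel1l over 1.78 to 3.2 and 2.71 to 11.2 TPM. The gene edem1 ranged over 1.07 to 4.20 TPM in females and 2.61 to 15.1 TPM in males, and derl2 over 0.75 to 1.59 and 1.32 to 4.25 TPM. Of the signal peptidase genes, spcs1 ranged over 16.7 to 30.5 TPM in females and 21.4 to 48.1 TPM in males, and spcs2 over 6.02 to 12.3 and 2.74 to 21.4 TPM. The top of every male range in this paragraph was BPAF-exposed male 1.

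The sexes differed most clearly in translocon genes. The channel gene sec61a1 and the 4 genes of the translocon-associated protein complex (ssr1, ssr2, ssr3 and ssr4) were higher in female livers, by 1.55-fold to 3.01-fold averaged over treatment. No chaperone gene passed the test in either direction. Averaged over treatment, 13 of the 39 tested genes passed at an adjusted p under 0.05 in limma, 5 of them higher and 8 lower in females, against a background of 59.4% of all tested genes called, 3.94% higher and 55.4% lower. The 5 higher genes were 5 of the 7 translocon genes. By role the 8 lower genes were 2 of 5 disulfide isomerases, 3 of 7 sensors and factors, 2 of 7 degradation genes and 1 of 3 signal peptidase genes, with 0 of 8 chaperones and 0 of 2 lectin chaperones called. In 4 genes every female library lay above every male library, where 1.57% of all tested genes did so, and in 1 gene below, where 27.7% did.

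The gene sec61a1 (ENSDARG00000021669) encodes the channel through which nascent chains cross the ER membrane. It stood at 369.5, 363 and 343 TPM in BPAF-exposed females, 329, 270.1 and 413 TPM in DMSO females, 190.3, 92.9 and 123 TPM in BPAF-exposed males, and 149.9, 77.4 and 87.2 TPM in DMSO males. Every female library lay above every male library. Its log2 difference was 1.59 ± 0.22 (SE; adjusted p = 0.000291, limma), which is 2.24 above the median of all genes. The related gene sec61a1l, which could share reads with it, stood at 4.84 to 12.95 TPM in females and 6.45 to 23.0 TPM in males.

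The ssr genes encode the translocon-associated protein complex, which sits beside the channel and helps certain signal sequences to insert. The gene ssr3 stood at 557, 812.5 and 635 TPM in BPAF-exposed females, 649, 789 and 571 TPM in DMSO females, 328, 218 and 200.3 TPM in BPAF-exposed males, and 278, 229.9 and 329 TPM in DMSO males. The gene ssr2 stood at 540.0, 727 and 618 TPM in BPAF-exposed females, 587.5, 670.0 and 518 TPM in DMSO females, 325, 249.6 and 179 TPM in BPAF-exposed males, and 293, 238 and 270.1 TPM in DMSO males. For both genes the lowest female library lay above the highest male library. The log2 difference was 1.35 ± 0.18 for ssr3 (adjusted p = 0.00022) and 1.25 ± 0.17 for ssr2 (adjusted p = 0.000259), both by limma, which is 2.01 and 1.90 above the median of all genes.

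The gene ssr1 stood at 200.2, 284 and 352.5 TPM in BPAF-exposed females, 244, 310.0 and 181 TPM in DMSO females, 139, 89.6 and 96.1 TPM in BPAF-exposed males, and 119, 50 and 149.7 TPM in DMSO males. The gene ssr4 stood at 337, 399.9 and 395 TPM in BPAF-exposed females, 385, 357 and 265 TPM in DMSO females, 285, 196 and 205 TPM in BPAF-exposed males, and 235, 241 and 211 TPM in DMSO males. The sexes did not overlap for ssr1, while for ssr4 the lowest female library, DMSO female 3, lay below BPAF-exposed male 1. Their log2 differences were 1.33 ± 0.28 (adjusted p = 0.00244) and 0.64 ± 0.16 (adjusted p = 0.00582, limma), which is 1.98 and 1.29 above the median of all genes. All 5 genes passed in each of the 22 fits run, which changed the pseudocount, the filter, the scaling between libraries, the replicate block and the library left out; the highest adjusted p over these fits was 0.0178, for ssr4.

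The other 2 translocon genes were not called on the deposited scale. The small channel subunits sec61b and sec61g overlapped between the sexes: sec61b averaged 113 ± 21.3 TPM in females and 102 ± 19.1 TPM in males (SD, n = 6 each), and sec61g averaged 1479.9 ± 209.7 TPM in females and 1380.2 ± 401 TPM in males. Neither passed on the deposited scale, and both passed as higher in females under trimmed-mean scaling. Ratios of TPM within a library do not change when the whole library is multiplied by a single factor, though quantile normalization can change them. The ratio of sec61a1 to sec61b was 2.08 to 4.42 in females and 0.797 to 1.59 in males. The ratio of ssr3 to pdia3 was 1.70 to 3.25 in females and 0.489 to 0.844 in males. Within the ssr complex, the ratio of ssr3 to ssr4 was 1.61 to 2.21 in females and 0.954 to 1.56 in males. All 3 ratios were higher in every female library than in any male library, so these genes differed between the sexes by unequal amounts. They are a choice among the ratios computed. The ratio of ssr3 to pdia3 sets a gene called higher against a gene called lower on the deposited scale. The ratio of hspa5 to pdia3 overlapped, at 0.093 to 0.385 in females and 0.027 to 0.958 in males.

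**Figure D2:**
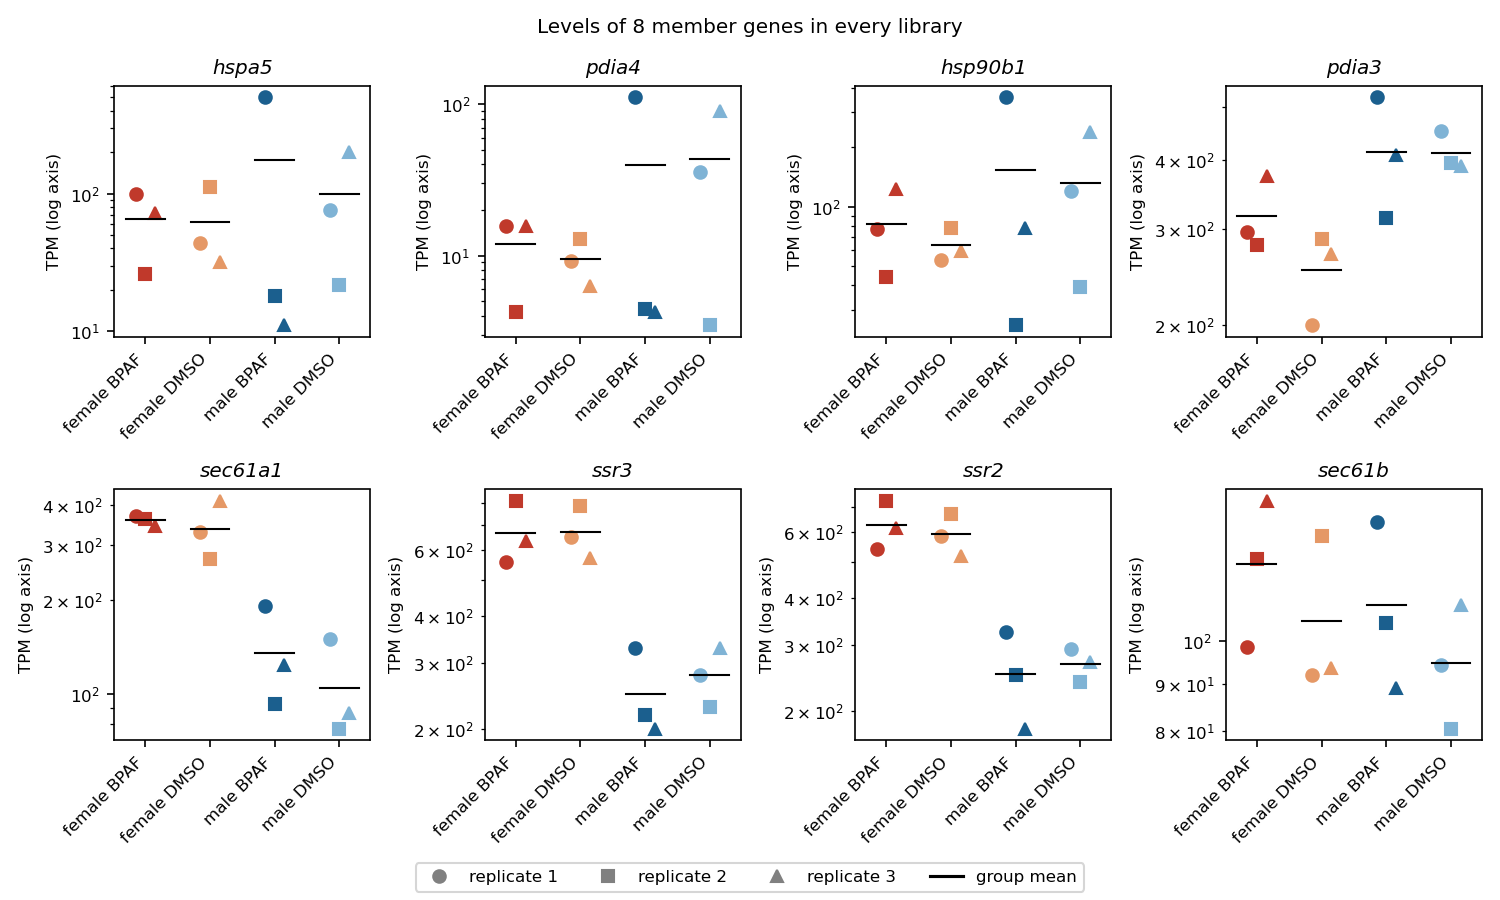
TPM (log axis) of 8 genes in every library, by group, with the group mean as a line and the replicate number as the marker shape. The genes sec61a1, ssr3 and ssr2 separate the 6 female from the 6 male libraries, while hspa5, pdia4 and hsp90b1 spread widest among males.

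The 8 genes called lower in females lay close to the median of all genes. They were the signal peptidase gene spcs3, the disulfide isomerases pdia3 and p4hb, the degradation genes derl1 and derl2, which form part of the channel for export from the ER, and the factors atf6, atf4a and atf4b. Their log2 differences on the deposited scale ran between -0.96 for derl1 and -0.54 for pdia3, which is between -0.30 and 0.11 relative to the median of all genes. The gene spcs3 had the smallest p of them; it averaged 25.5 ± 3.0 TPM in females, against 42.1 ± 9.6 TPM in males (SD, n = 6 each), with no overlap and a log2 difference of -0.69 ± 0.18 (adjusted p = 0.00773, limma). Under trimmed-mean scaling none of the 8 passed, and the differences of spcs3, pdia3, atf4a, atf4b and p4hb turned positive, to between 0.10 and 0.35. Under that scaling 12 of the 39 genes were higher in females and 0 were lower by limma (17 of 39, or 43.6%, at an unadjusted p under 0.05, where 41.9% of all genes were), against a background of 12.5% higher and 14.8% lower. The 7 genes added to the 5 above were spcs2, os9, xbp1, sec61b, sec61g, canx and syvn1. The number of calls also rested on single libraries: without DMSO female 1 it was 7 of 39, where 52.6% of all genes were called. After rescaling without vitellogenins it was 8, all higher, where 40.8% of all genes were called. Of those 11382 genes, 608 were called higher and 4035 lower.

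The gene xbp1 stood at 272, 205 and 382 TPM in BPAF-exposed females, 189.6, 312 and 206 TPM in DMSO females, 251, 73.3 and 108 TPM in BPAF-exposed males, and 245, 67.1 and 224 TPM in DMSO males. Its 3 low libraries were all male, and the other 3 male libraries fell within the female range. The log2 difference was 0.85 ± 0.38 (adjusted p = 0.0695, limma), and 1.75 with adjusted p = 0.00711 under trimmed-mean scaling, with adjusted p over all its fits between 0.00585 and 0.154. Of the 7 sensors and factors, xbp1 was the only gene with a positive difference on the deposited scale.

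The chaperones showed wide spread and no sex difference that passed. The gene hspa5 encodes BiP, the main ER chaperone of the Hsp70 family. Its log2 difference between females and males was -0.05 ± 0.87 (adjusted p = 0.959, limma), with a 95% interval of -1.95 to 1.84, and 0.82 under trimmed-mean scaling. For hsp90b1, the ER member of the Hsp90 family, it was -0.48 ± 0.59 (adjusted p = 0.496), and 0.41 under trimmed-mean scaling. For ddit3, a stress-induced factor linked to cell death, it was -0.28 ± 0.29 (adjusted p = 0.421), and for herpud1, a membrane protein of ER-associated degradation, -0.21 ± 0.42 (adjusted p = 0.667); both turned positive under trimmed-mean scaling, at 0.28 and 0.57. The intervals are too wide to show that the sexes were alike.

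**Figure D3:**
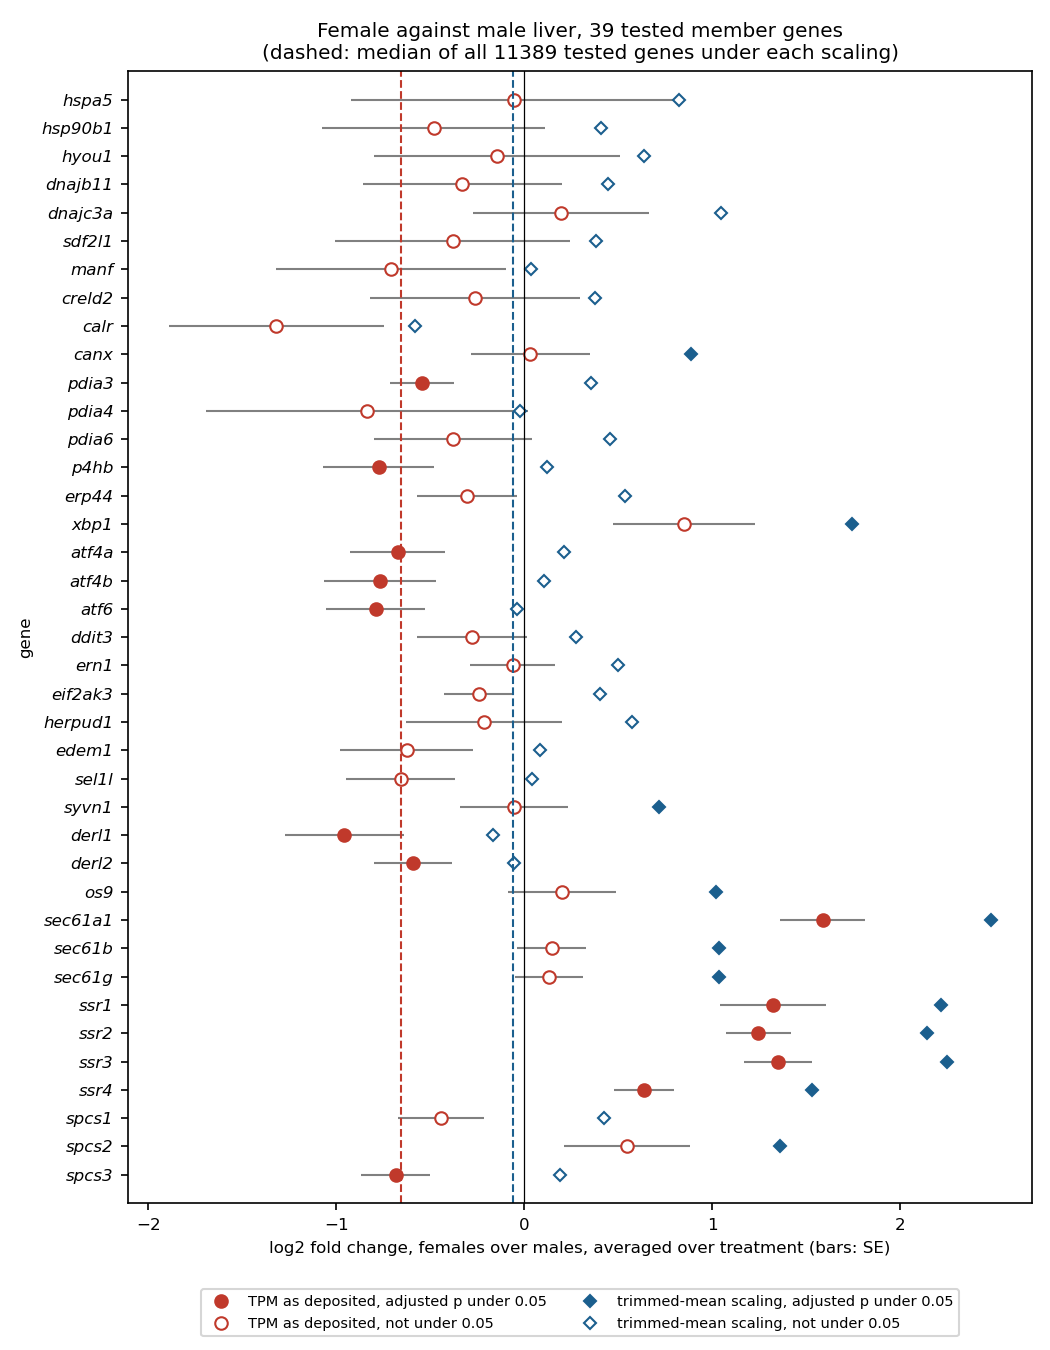
Log2 difference of females over males, averaged over treatment, for the 39 tested genes on the deposited scale (circles, bars are SE) and under trimmed-mean scaling (diamonds); filled symbols passed at an adjusted p under 0.05, and dashed lines mark the median of all tested genes. The genes sec61a1 and ssr1 to ssr4 are filled on the right under both scalings, whereas the 8 genes filled on the left lie near the median and are not filled under trimmed-mean scaling, where 5 of them turn positive.

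Within each treatment the same translocon genes led. Among BPAF-exposed fish 6 of the 39 genes passed between females and males, against a background of 47.6%: ssr3, ssr2, sec61a1, ssr1 and ssr4 were higher (background 1.91% higher) and spcs3 was lower (background 45.7% lower). Their log2 differences were 1.44 ± 0.26 for ssr3, 1.35 ± 0.24 for ssr2, 1.46 ± 0.32 for sec61a1, 1.35 ± 0.40 for ssr1, 0.74 ± 0.23 for ssr4 and -0.69 ± 0.26 for spcs3, with adjusted p between 0.0028 and 0.0437 by limma. The difference of spcs3 turned to 0.40 under trimmed-mean scaling. All 5 translocon genes lay higher in every BPAF-exposed female than in any BPAF-exposed male, where 3.07% of all tested genes did so. In the other direction atf4b and spcs3 lay lower in every BPAF-exposed female than in any BPAF-exposed male. The share of all genes that did so is not given here, so these 2 genes are not read as a result about the group. Of all tested genes 45.7% were called lower in BPAF-exposed females, and the median log2 difference was -0.78. The number of genes that passed was 3 without BPAF-exposed female 2 or without BPAF-exposed female 3; of all genes 33.7% and 25.7% were then called.

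Among DMSO fish 4 of the 39 genes passed between females and males, all higher in females, against a background of 23.3% called and 2.1% called higher. These were sec61a1 at 1.72 ± 0.32, ssr3 at 1.26 ± 0.26, ssr2 at 1.14 ± 0.24 and ssr1 at 1.31 ± 0.40 (log2 difference ± SE), with adjusted p of 0.00518, 0.00731, 0.00912 and 0.0357 by limma. The gene ssr4 did not pass, though it too lay higher in every DMSO female than in any DMSO male, as 4.72% of all tested genes did. In the other direction calr, pdia3, atf6, sel1l, derl1, derl2 and spcs3 lay lower in every DMSO female than in any DMSO male. The share of all genes that did so is not given here, so these 7 genes are not read as a result about the group. Of all 11389 tested genes, 2416 were called lower in DMSO females, and the median log2 difference was -0.52. The degradation gene derl1 came closest to passing in the other direction, at -1.33 ± 0.45 (adjusted p = 0.0505). Without BPAF-exposed male 1, which enters through the shared estimate of the spread, 9 of the 39 passed, 4 higher and 5 lower, where 29.7% of all genes were called. Under quantile normalization 7 passed, all higher, where 8.17% of all genes were called. Of all 11389 genes, 482 were then called higher and 448 lower. On the deposited scale the stress genes hspa5, hsp90b1, xbp1, ddit3 and herpud1 did not pass within either treatment: adjusted p was 0.863 in BPAF-exposed and 0.84 in DMSO fish for hspa5, 0.805 and 0.546 for hsp90b1, 0.0949 and 0.439 for xbp1, 0.201 and 0.888 for ddit3, and 0.552 and 0.993 for herpud1 (limma). Among BPAF-exposed fish xbp1 passed as higher in females under trimmed-mean scaling, at 2.25 (adjusted p = 0.0283, limma), and under quantile normalization, at 2.12 (adjusted p = 0.0313). It was then 1 of 9 and 1 of 8 genes of the 39 called higher, where 3.49% and 3.09% of all genes were called higher.

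On the deposited scale, summed markers of some other tissues also differed with sex. The summed level of 22 ovary and germline markers was 15.7 to 497 TPM in females and 11.98 to 42.6 TPM in males, and 17 intestine marker symbols summed to 971 to 1969 TPM in females and 3066 to 9564 TPM in males. Exocrine pancreas markers, a tissue rich in ER, overlapped, with 23 markers summing to 252 to 660 TPM in females and 189 to 797 TPM in males. The 13 testis markers summed to at most 0.91 TPM in females and 24.3 TPM in males. The ovary and germline sum lay within the male range in BPAF-exposed female 2, at 15.7 TPM, and in DMSO female 3, at 35.8 TPM. Of the cell types of the liver itself, biliary markers summed to 453 to 705 TPM in females and 918 to 1705 TPM in males, endothelial and stellate markers to 10.5 to 25.3 and 57.7 to 286 TPM, erythrocyte markers to 793 to 1480.2 and 1763 to 5501 TPM, and leukocyte markers to 112 to 304 and 335 to 764 TPM. All these sums are on the deposited scale, where the median of all genes lay 0.66 lower in females (log2, averaged over treatment). Which sums differ or overlap may therefore depend on the scaling. The part of these cell types and tissues in the sex differences was not tested.

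Other genes of the pathway were taken as 5 lists that exclude the 40 genes. Of 24 tested genes of translocation and N-glycosylation, 0 were higher and 4 lower in females, averaged over treatment, where 3.94% of all tested genes were higher and 55.4% lower; its median log2 difference was -0.28, where all genes had -0.66. The 3 of the 4 with the smallest p were magt1 and ost4, of the oligosaccharyl transferase, and srp14, of the signal recognition particle, at -1.09 ± 0.26, -0.66 ± 0.21 and -1.02 ± 0.33. Under trimmed-mean scaling this list had 8 genes higher and 0 lower, where all genes had 12.5% higher and 14.8% lower. Its median was then 0.57, where all genes had -0.06, and ost4 turned to 0.23.

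Of 26 other folding genes, 2 were higher and 4 lower in females, read against the same background of 3.94% and 55.4%. The 2 higher genes were fkbp11, a prolyl isomerase of secretory cells, and prkcsh, the beta subunit of glucosidase II that trims N-glycans. The gene fkbp11 averaged 51.5 ± 25.9 TPM in females and 14.0 ± 4.7 TPM in males (SD, n = 6 each), a log2 difference of 1.70 ± 0.33 (adjusted p = 0.00139, limma). The gene prkcsh averaged 34.9 ± 7.3 TPM in females and 22.6 ± 7.1 TPM in males, with 0.63 ± 0.24 (adjusted p = 0.0385). Both passed under every scaling tried. Among the lower ones were the thioredoxin-domain gene txndc12, at -1.14 ± 0.17, and the co-chaperone gene dnajc1, at -1.12 ± 0.21; dnajc1 no longer passed under trimmed-mean scaling, where the list had 9 genes higher and 2 lower, against 12.5% and 14.8% of all genes.

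Of 37 genes of transport between the ER and the Golgi, 3 were higher and 19 lower in females, again where 3.94% of all genes were higher and 55.4% lower. The 3 higher genes included both partners of a cargo receptor for glycoproteins, lman1 and mcfd2, and the coat gene sec31b. The gene mcfd2 averaged 31.3 ± 6.5 TPM in females and 14.7 ± 7.4 TPM in males (SD, n = 6 each), with a log2 difference of 1.13 ± 0.30 (adjusted p = 0.00767, limma), and lman1 averaged 23.0 ± 3.3 TPM in females and 13.2 ± 11.1 TPM in males, with 1.02 ± 0.37 (adjusted p = 0.0334). Those 3 genes passed under all 4 scalings, whereas of the 19 lower ones only tmed9 passed as lower under trimmed-mean scaling. The lowest p among them belonged to copa, a subunit of the coat for return transport, at -1.24 ± 0.19, to the retrieval receptor gene kdelr2a, at -1.45 ± 0.25, and to the cargo receptor gene tmed7, at -1.04 ± 0.18.

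Of 22 other genes of the unfolded protein response, 1 was higher and 8 lower in females, where all genes had 3.94% and 55.4%. The higher gene was nupr1b, a stress-induced nuclear protein, which averaged 239 ± 119.7 TPM in females and 86.0 ± 34.6 TPM in males (SD, n = 6 each), with a log2 difference of 1.39 ± 0.38 (adjusted p = 0.00878, limma). Its paralog nupr1a differed the other way, at -1.52 ± 0.30, and so did trib3, a pseudokinase induced downstream of eif2ak3, at -1.42 ± 0.30, and the factor cebpb, at -1.32 ± 0.30. Of these 3, trib3 passed under trimmed-mean scaling too. Of 21 other degradation genes, 0 were higher and 17 lower, where all genes had 3.94% and 55.4%, with a median of -0.73, near the median of all genes. Under trimmed-mean scaling 2 of them passed, both lower: ufd1l, a cofactor of the p97 ATPase that pulls proteins out of the membrane, at -0.73, and ubxn4, another p97 cofactor, at -0.65. On the deposited scale they differed by -1.54 ± 0.19 and -1.45 ± 0.20, and rnf185, an ER ubiquitin ligase, by -1.003 ± 0.18. No gene of these 5 lists passed for BPAF against DMSO in either sex or for the female minus male response (limma).

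With BPAF, no member of the group passed in either sex. In males 0 of the 39 genes passed in limma, 2 (5.13%) at an unadjusted p under 0.05, where 6.34% of all genes were, against a background of 0.0527% called. In females 0 of the 39 passed, 0 at an unadjusted p under 0.05, where 1.38% of all genes were, against a background of 0.0%. These counts of 0 held in every fit run, 24 in males and 23 in females.

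Of the 5 genes with the smallest p in males, 2 were sensors or factors of the unfolded protein response. The kinase gene eif2ak3, which encodes the sensor PERK that slows translation, stood at 4.71, 3.48 and 3.29 TPM in BPAF-exposed males, against 1.70, 2.79 and 1.69 TPM in DMSO males. Every exposed male lay above every DMSO male, as for 9.71% of all tested genes, and eif2ak3 was the only gene of the 39 to do so. Its log2 difference was 0.67 ± 0.26 (unadjusted p = 0.0262, adjusted p = 0.734, limma), which is 0.43 above the median of all genes in that comparison, 0.24. The gene ddit3 stood at 6.50, 1.74 and 2 TPM in BPAF-exposed males, against 2.06, 0.22 and 1.05 TPM in DMSO males, a log2 difference of 1.003 ± 0.41 (unadjusted p = 0.0327, adjusted p = 0.748). Its groups overlapped, and its difference was 0.54 without BPAF-exposed male 1. The next smallest p belonged to spcs2 at 0.86 ± 0.48, erp44, which retains folding enzymes in the ER, at 0.66 ± 0.38, and sec61a1 at 0.37 ± 0.32, with adjusted p between 0.789 and 0.815; sec61a1 turned to -0.03 under trimmed-mean scaling. With the male libraries alone and their replicate number as a block, since same-numbered males deviated together, the 5 genes had adjusted p between 0.323 and 0.462 (limma) and again none of the 39 passed, where 0.0% of all genes did; 4 of the 39 (10.3%) had an unadjusted p under 0.05, as did 11.4% of all genes. These 5 genes were the 5 of the 39 that were higher in the exposed male of all 3 pairs, where 35.0% of all tested genes were. That draws on the same values as their p and adds no separate support. Of the 39, 0 were lower in all 3 pairs, where 2.97% of all genes were.

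The chaperones of exposed males were split between libraries. The gene hspa5 stood at 499, 18.2 and 11.0 TPM in BPAF-exposed males, against 75.5, 21.8 and 201 TPM in DMSO males. The highest and the 2 lowest of the 6 male libraries were thus all exposed. The log2 difference was -0.54 ± 1.22 (adjusted p = 0.921, limma; 95% interval -3.21 to 2.14), and -2.22 without BPAF-exposed male 1. The gene pdia4, a disulfide isomerase, stood at 111, 4.41 and 4.25 TPM in BPAF-exposed males, against 35.9, 3.45 and 90.7 TPM in DMSO males, with DMSO male 2 lower than every exposed male. The gene hsp90b1 stood at 358, 25.0 and 77.7 TPM in BPAF-exposed males, against 119.6, 39.1 and 238 TPM in DMSO males, with -0.22 ± 0.84 (adjusted p = 0.951), and -1.21 without BPAF-exposed male 1. For xbp1 the difference was -0.29 ± 0.53 (adjusted p = 0.899), and for herpud1 0.42 ± 0.59 (adjusted p = 0.869), which turned to -0.46 without BPAF-exposed male 1.

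Over the 39 genes, 22 differences between BPAF-exposed and DMSO males were positive and 17 negative, with a median of 0.07, where 80.2% of all tested genes were positive, with a median of 0.24. Without BPAF-exposed male 1 the count was 8 positive and 31 negative with a median of -0.30, and 5 genes (12.8%) had an unadjusted p under 0.05, with none passing after adjustment. Of all genes, 60.8% were then positive, with a median of 0.08, 4.36% had an unadjusted p under 0.05 and 0.00929% passed. By role, the 8 tested chaperones had a median of -0.28 with all libraries and -1.28 without that library, and the 7 degradation genes 0.24 and -0.30. Under trimmed-mean scaling, with all libraries, 7 differences were positive and 32 negative, with a median of -0.28, where 41.6% of all genes were positive, with a median of -0.05. Leaving out other male libraries moved the count too. It was 35 positive without BPAF-exposed male 2 and 33 without BPAF-exposed male 3, where 82.0% and 83.2% of all genes were positive. It was 28, 18 and 27 without DMSO males 1, 2 and 3, where 82.3%, 79.0% and 69.7% of all genes were positive. The balance of positive and negative differences in exposed males thus changed in both directions with the library left out, and with the scaling. Intestine markers were higher in exposed males too, summing to 4546 to 9564 TPM, against 3066 to 3557 TPM in DMSO males; all 17 tested intestine markers had a positive difference, with a median of 1.5, and none passed. The 13 testis markers also summed higher in exposed males, to 18.7, 24.3 and 5.65 TPM, against 2.85, 0.86 and 2 TPM in DMSO males. Of these markers 9, 4 and 0 were at 1 TPM or more in the exposed males, and 0 in each DMSO male. The part of either tissue in these values was not tested.

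In females the differences with BPAF were small and mostly positive, 38 of 39, where 47.8% of all tested genes were positive. Their median was 0.18, where all genes had a median of -0.01. The count of positive differences rested on single libraries. It was 26 without DMSO female 1, 27 without BPAF-exposed female 3, 28 without BPAF-exposed female 1 and 29 without DMSO female 3. Without BPAF-exposed female 2 or DMSO female 2 it was 37 and 38. Of all genes, 41.8% were positive without DMSO female 1 and 58.1% without BPAF-exposed female 3. The genes with the smallest p were eif2ak3, at 0.48 ± 0.26, pdia3, at 0.33 ± 0.24, derl1, at 0.61 ± 0.45, p4hb, the founding protein disulfide isomerase, at 0.39 ± 0.42, and edem1, which marks misfolded glycoproteins for degradation, at 0.43 ± 0.50, all with adjusted p = 1 (limma). The gene derl1 was the only gene of the 39 whose groups did not overlap, at 7.65, 5.68 and 6.38 TPM in BPAF-exposed females, against 2.96, 5.24 and 3.87 TPM in DMSO females; 2.35% of all tested genes lay higher in every exposed than in every DMSO female. The gene eif2ak3 stood at 4.18, 2.12 and 2.40 TPM in BPAF-exposed females, against 1.44, 2.18 and 1.61 TPM in DMSO females, with overlap in 1 library of each group.

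In females hspa5 stood at 98.9, 26.1 and 71.9 TPM with BPAF, against 43.4, 110.8 and 32.0 TPM with DMSO, a difference of 0.09 ± 1.22 (log2). For hsp90b1 it was 0.24 ± 0.84, for xbp1 0.27 ± 0.53, for ddit3 0.27 ± 0.41 and for herpud1 0.01 ± 0.59, all with adjusted p = 1 in limma. The precision differed between genes: the 95% interval was -2.59 to 2.77 for hspa5 but -0.31 to 0.68 for ssr4.

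**Figure D4:**
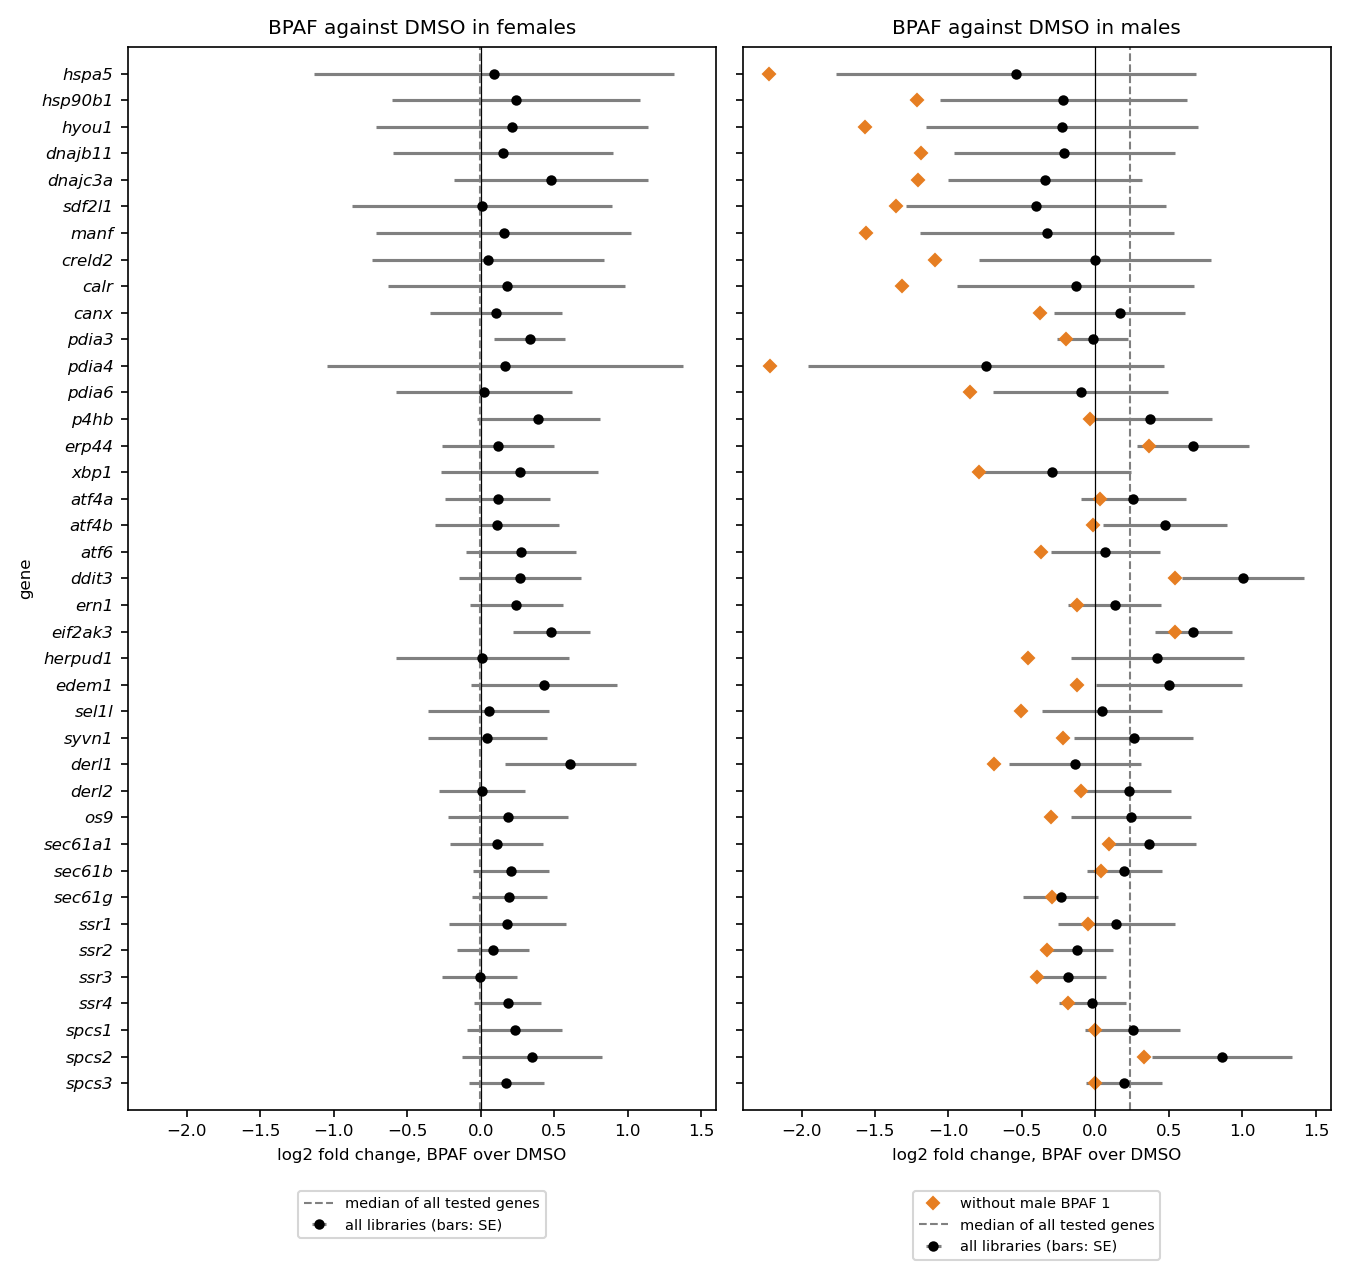
Log2 difference of BPAF over DMSO for the 39 tested genes in females (left) and males (right), with SE as bars and the median of all tested genes as a dashed line; orange diamonds give males without BPAF-exposed male 1. No gene passed, and in males the chaperones and pdia4 move far to the left without that 1 library.

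The response to BPAF did not differ detectably between the sexes for any of the genes. For the female minus male difference in response 0 of the 39 passed in limma, 0 at an unadjusted p under 0.05, where 3.23% of all genes were, against a background of 0.0%. The genes with the smallest p were ddit3, at -0.74 ± 0.59, sec61g, at 0.43 ± 0.36, derl1, at 0.75 ± 0.63, pdia3, at 0.35 ± 0.34, and erp44, at -0.55 ± 0.54 (log2, female minus male), all with adjusted p = 0.996. For hspa5 the value was 0.63 ± 1.73, for hsp90b1 0.46 ± 1.19, for xbp1 0.56 ± 0.75 and for herpud1 -0.41 ± 0.83, with the same adjusted p. Without BPAF-exposed male 1, 5 genes (12.8%) had an unadjusted p under 0.05, where 2.88% of all genes did, and hspa5 stood at 2.31.

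The gene with the widest range within a sex was hspa5, among males. Its highest level was 4.24 times the lowest among the 6 female libraries and 45.3 times among the 6 male libraries, and 3.73 and 28.2 times under trimmed-mean scaling. For pdia4 the ratio was 3.72 in females and 32.2 in males, and for hyou1, an Hsp70-like exchange factor for BiP, 2.004 in females and 26 in males. The gene ddit3 had 2.14 in females and 29.5 in males, although its lowest value, 0.22 TPM, is near the bottom of the scale. The translocon genes varied less, between 1.40 and 1.94 times in females and between 1.45 and 2.99 times in males.

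By role, the median ratio of highest to lowest in females was 3.06 for the 8 tested chaperones and 1.53 for the translocon genes, where all tested genes above 0 in every female library had 2.59. In males it was 20.7 for the chaperones, 4.34 for the disulfide isomerases, 3.85 for the degradation genes and 1.82 for the translocon genes, where all genes had 2.88. The spread of chaperones was not confined to 1 library: without BPAF-exposed male 1 their median was 9.07, where all genes had 2.29, and among the 3 DMSO males it was 5.77, where all genes had 1.97. Under trimmed-mean scaling it was 3.19 in females, where all genes had 2.47, and 15.4 in males, where all genes had 2.38. The genes hyou1, manf, a secreted factor that binds BiP, and creld2, an ER stress-inducible gene, show the pattern in each male library. The gene hyou1 stood at 52.8, 2.57 and 2.03 TPM in BPAF-exposed males and 11.9, 2.66 and 18.7 TPM in DMSO males. The gene manf stood at 40.4, 2.89 and 1.57 TPM in BPAF-exposed males and 14.1, 3.16 and 12.1 TPM in DMSO males. The gene creld2 stood at 17.3, 1.08 and 0.73 TPM in BPAF-exposed males and 4.70, 1.25 and 4.14 TPM in DMSO males. In all 3 genes BPAF-exposed male 1 and DMSO males 1 and 3 were high, and the other 3 male libraries were low.

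**Figure D5:**
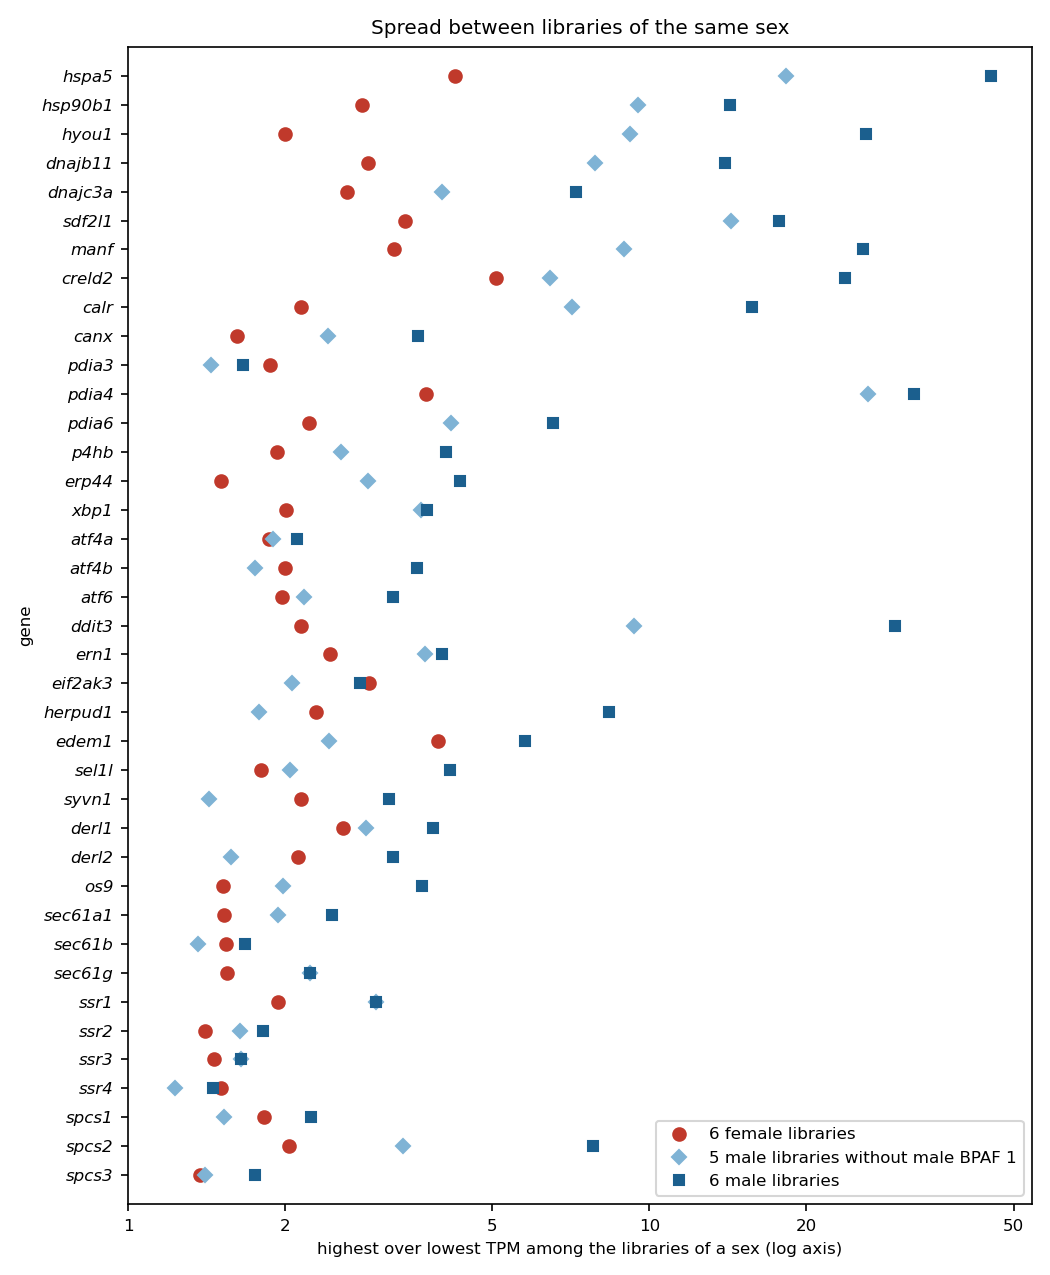
Ratio of the highest to the lowest TPM (log axis) of each tested gene among the 6 female libraries, among the 6 male libraries and among the 5 male libraries left without BPAF-exposed male 1. Most chaperones, calr, pdia4 and ddit3 lie furthest right in males, while the translocon genes stay below 3 in both sexes.

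BPAF-exposed male 1 had the highest level of the 12 libraries for 31 of the 39 genes on the deposited scale, where it was highest for 49.8% of all tested genes. Among males it was highest for 36 of 39, where all genes had 55.9%. Under trimmed-mean scaling it was highest of the 12 for 12 of 39, where all genes had 6.33%, behind BPAF-exposed female 3 with 14 of 39, where all genes had 13.3%. Among males it was then highest for 15 of 39, where all genes had 14.1%. DMSO male 3 was then highest among males for another 15, where all genes had 21.9%. The gene calr, for the soluble lectin chaperone calreticulin, stood at 47.8, 3.04 and 3.28 TPM in BPAF-exposed males and at 21.6, 6.52 and 5.56 TPM in DMSO males. Its paralogs calr3a and calr3b, which could share reads with it, also peaked in BPAF-exposed male 1, at 319 and 56.3 TPM, and their other male libraries lay at 56.6 to 147.8 and 0.46 to 13.0 TPM.

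Most chaperone genes varied along with hspa5 among males. Of the 38 other tested genes, 5 had a Pearson correlation with hspa5 of at least 0.9 in females (log2(TPM + 1), n = 6 libraries), where 0.907% of all tested genes did, and the median was 0.51, where all genes had 0.159. In males 11 of 38 reached 0.9, where 1.11% of all genes did, and the median was 0.795, where all genes had 0.279. Under trimmed-mean scaling the counts of genes at 0.9 or more were 5 in females and 10 in males, where all genes had 0.537% and 0.843%. The libraries share their scaling and composition, and those of 1 sex include both treatments, so these are descriptions of the libraries at hand. Over the 76 correlations no permutation p passed after Benjamini-Hochberg adjustment, the smallest being 0.066 for r and 0.158 for rho.

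In females the highest correlations were those of pdia6, a disulfide isomerase, at r = 0.949, and herpud1, at 0.94, with 0.886 and 0.892 without the 2 libraries farthest from the median, BPAF-exposed female 2 and DMSO female 2. Under trimmed-mean scaling r in females was 0.957 for herpud1 but 0.882 for pdia6. The genes at 0.9 or more also changed: pdia6 and sel1l (0.815) fell below, while derl2 (0.916) and calr (0.911) rose above. In males the highest was that of hyou1, with r = 0.991 (permutation p = 0.00139, the smallest that 6 libraries can give) and rho = 1 (permutation p = 0.00278), and r = 0.975 without the 2 farthest libraries, BPAF-exposed male 1 and DMSO male 3. It was followed by ssr3 at 0.975, manf at 0.968, pdia4 at 0.966 and creld2 at 0.956. Without those 2 libraries r was 0.997 for ssr3, 0.997 for manf, 0.919 for pdia4 and 0.99 for creld2, while it was 0.522 for hsp90b1, against 0.887 over all 6. Under trimmed-mean scaling r in males was 0.992 for hyou1, 0.969 for manf, 0.964 for pdia4 and 0.965 for creld2, but 0.518 for ssr3.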

How the data were processed

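RNA was extracted from zebrafish liver with TRIzol and made into libraries with an Illumina TruSeq kit, per the labels' protocols. The submitters' processing notes list Cufflinks, RSEM and HISAT2 2.1.0 without saying what each did, and no source used here gives a genome build. The deposited values were read as TPM from the authors' table: its header names no unit, and each column sums to between 978505 and 992375. Read depth is unknown, so no counting interval is given.

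Genes with at least 1 TPM in at least 3 of the 12 libraries (11389 of 32520) were kept, and log2(TPM + 1) was fitted with limma 3.58.1 (group means, mean-variance trend, 8 residual degrees of freedom, R 4.3.3), with Benjamini-Hochberg adjustment over all genes and a threshold of 0.05. Fold changes on this scale understate those of low genes. Differences of group means were tested between treatments within each sex, between sexes, and as the female minus male response. Trimmed-mean factors were computed from the TPM values by the trimmed mean of M values, and correlations from scipy 1.17.1 with exact permutation. The fits were checked on simulated data. Same-numbered BPAF-exposed and DMSO males deviated together from their group means over all genes, with r of 0.33 to 0.38 in the 3 pairs. Between unlike numbers r was -0.23 to -0.12. Deviations from a mean cancel within a group, so those negative values follow from the positive ones and add no support of their own. The numbers were taken as pairs there, from the data and not from the labels. In no other pair of groups did all 3 same-numbered r exceed 0.1. Alternatives changed the pseudocount, filter, scaling, libraries fitted, replicate block and trend.

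The members and lists were chosen with earlier results of these data known. Tests are given for up to 12 called members with the smallest p in each comparison or, where fewer than 5 passed, the 5 smallest, and always for hspa5, hsp90b1, xbp1, ddit3 and herpud1, and for up to 3 called genes of each list. Other genes named (atf4b, genes called higher in a list beyond those 3, and genes named for their spread or correlation) were chosen after their values were seen.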

Additional observations from a re-analysis of the deposited data

How the results depend on the processing

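The counts of 0 members called for BPAF in males, in females and between the sexes were 0 under every alternative run. For females against males averaged over treatment, 13 members passed, 8 when libraries were rescaled without vitellogenins, and 7 to 15 with 1 library left out. In DMSO fish 4 passed, 7 under quantile normalization, and 3 to 9 with 1 library left out. In BPAF-exposed fish 6 passed, and 3 to 7 with 1 library left out. The calls over all genes moved as well with 1 library left out, of 10767 to 11350 tested. They were 5873 to 6884 averaged over treatment, 909 to 3199 in DMSO fish and 2919 to 5412 in BPAF-exposed fish. The genes sec61a1 and ssr1 to ssr4, averaged over treatment, passed under every alternative run.

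Scaling reversed the following log2 differences among the genes tested by name. For BPAF in males, sec61a1 was -0.029 under trimmed-mean scaling. For females against males averaged over treatment, values under trimmed-mean scaling and quantile normalization were 0.19 and 0.30 for spcs3, 0.35 and 0.27 for pdia3, 0.21 and 0.29 for atf4a, 0.12 and 0.17 for p4hb, 0.82 and 0.90 for hspa5, 0.41 and 0.51 for hsp90b1, 0.28 and 0.27 for ddit3, 0.57 and 0.58 for herpud1 and 0.23 and 0.31 for ost4; without vitellogenins hspa5 was 0.30 and herpud1 0.10. In BPAF-exposed fish they were 0.40 and 0.39 for spcs3, 0.85 and 0.80 for hsp90b1, 0.11 and 0.12 for ddit3, 0.57 and 0.50 for herpud1 and 0.047 and 0.025 for rnf185; without vitellogenins hsp90b1 was 0.10. In DMSO fish they were 0.30 and 0.55 for hspa5 and 0.58 and 0.65 for herpud1, with 0.23 for hsp90b1 under quantile normalization and 0.31 for herpud1 without vitellogenins. The gene atf4b, averaged over treatment, was 0.10 and 0.18 under the first and second of these scalings. Over all 39 members, 22 and 23 changed sign averaged over treatment, 23 and 24 in BPAF-exposed fish, 14 and 19 in DMSO fish, 15 and 10 for BPAF in males, 1 and 0 for BPAF in females, and 11 and 9 for the female minus male response. The cause was not tested.

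Leaving out 1 library at a time changed the sign of differences that did not pass. For BPAF in females the ranges were -0.30 to 0.64 for hspa5, -0.12 to 0.62 for hsp90b1 and -0.22 to 0.29 for herpud1, and in males -2.22 to 0.47, -1.21 to 0.68 and -0.46 to 0.93, with -0.89 to 0.092 for xbp1. For the female minus male response they were -0.38 to 2.31 for hspa5, -0.44 to 1.45 for hsp90b1 and -0.92 to 0.47 for herpud1. For females against males averaged over treatment they were -0.56 to 0.79, -0.93 to 0.015 and -0.47 to 0.23 in the same gene order, and in BPAF-exposed fish -0.75 to 1.94, -1.15 to 0.74 and -0.93 to 0.46. In DMSO fish they were -1.19 to 0.39 for hspa5, -0.026 to 0.90 for xbp1, -0.26 to 0.41 for ddit3 and -0.19 to 0.11 for herpud1. The cause was not tested.

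Same-numbered libraries were taken as pairs in the comparison of BPAF-exposed and DMSO males only; a replicate block with those 6 libraries alone, added after seeing the data, called 0 members. With the replicate block over all 12 libraries, 14 members passed averaged over treatment, 7 in BPAF-exposed fish, 5 in DMSO fish and 0 in each BPAF comparison. Of all 11389 genes tested in that fit, 7144 passed averaged over treatment, 5956 in BPAF-exposed fish and 3123 in DMSO fish. In each of these sex comparisons the share called was larger among all genes than among the members. The correlation counts and spreads under trimmed-mean scaling were chosen after seeing the data. With 3 libraries a group and unknown depth, changes of chaperones of about the size of their intervals were not detectable.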
